A study of Mus musculus with 6 samples.

Results

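The genes of fatty acid synthesis, elongation and desaturation were followed in D10 cells, a cloned mouse CD4+ helper T cell line, after 24 h at 26°C or at 37°C. The 10 genes, chosen by symbol from the 41079 listed genes, were Acly, Acaca and Fasn for synthesis, Scd1, Scd2, Fads1 and Fads2 for desaturation, and Elovl1, Elovl5 and Elovl6 for elongation. Of these, 9 passed the filter of a mean TPM of at least 1 over all libraries and were among the 12227 genes tested, and Fads2 did not. TPM is a transcript level per gene length, with the same total in each library, so levels can be compared between genes.

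There were 2 groups of 3 replicates. Cold-acclimated cells were kept at 26°C for 24 h and non-acclimated cells at 37°C for 24 h, and no other treatment is labelled. Both groups grew in medium with IL-2, and D10 is a clone, so the values hold for 1 cell line. The study describes the replicates as biological and prepared independently. In bulk RNA, fewer cells of a type and less RNA per cell cannot be told apart.

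In mammalian cells, citrate exported from mitochondria is cleaved by ATP citrate lyase (Acly) to cytosolic acetyl-CoA. Acetyl-CoA carboxylase (Acaca) turns this into malonyl-CoA, and fatty acid synthase (Fasn) assembles both into palmitate, a saturated fatty acid. Elongases (Elovl genes) then lengthen acyl chains, and desaturases (Scd and Fads genes) insert double bonds, which set how fluid a membrane is at a given temperature. Transcription of most of these genes is driven by sterol regulatory element-binding proteins (SREBPs), with NF-Y and Sp1 as common partners, and proliferating T cells depend on the pathway for new membrane.

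The promoters of 3 genes are shown for contrast. With TPM as deposited, Elovl5 passed the test as lower at 26°C. Acly and Fasn, the genes for the first and last steps of synthesis, did not. With the other scaling given below, Elovl5 did not pass either. The promoters are from RefSeq on GRCm38.p6, an older build than the GRCm39 of the expression data. They hold 250 bases before and 50 after an annotated transcription start. Capitals mark the letters CCAAT (the NF-Y box), GGGCGG (the Sp1 box) or CACGTG (the E-box), searched on both strands. The windows are chr9:77917115-77917414 on the plus strand for Elovl5, chr11:100527951-100528250 on the minus strand for Acly, and chr11:120824498-120824797 on the minus strand for Fasn, whose start lies 619 bases inside the outermost annotated start of the gene.
Elovl5: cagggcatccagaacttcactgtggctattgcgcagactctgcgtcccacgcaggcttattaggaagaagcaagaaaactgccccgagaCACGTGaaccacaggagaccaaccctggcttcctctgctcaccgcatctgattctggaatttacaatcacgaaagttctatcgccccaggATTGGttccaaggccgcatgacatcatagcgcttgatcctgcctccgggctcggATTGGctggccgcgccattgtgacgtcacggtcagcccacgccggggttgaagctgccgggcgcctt
Acly: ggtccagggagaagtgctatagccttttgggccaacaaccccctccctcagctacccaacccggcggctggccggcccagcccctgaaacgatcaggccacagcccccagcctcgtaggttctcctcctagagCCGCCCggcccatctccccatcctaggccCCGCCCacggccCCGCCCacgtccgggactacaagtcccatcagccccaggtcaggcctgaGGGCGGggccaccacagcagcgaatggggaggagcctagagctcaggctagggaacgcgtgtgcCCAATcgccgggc
Fasn: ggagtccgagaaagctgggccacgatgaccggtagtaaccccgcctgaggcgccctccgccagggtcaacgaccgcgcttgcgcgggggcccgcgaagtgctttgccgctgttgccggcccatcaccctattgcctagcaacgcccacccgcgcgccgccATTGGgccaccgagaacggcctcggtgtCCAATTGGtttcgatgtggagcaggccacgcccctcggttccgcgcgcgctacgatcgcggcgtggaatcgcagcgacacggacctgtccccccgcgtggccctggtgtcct

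The Elovl5 promoter held CACGTG once and CCAAT on its minus strand at -71 and -17 from the start. In the Fasn promoter, CCAAT was found at -90 and, as a pair of overlapping matches on opposite strands, at -62 and -59. Acly had GGGCGG at 4 places between -117 and -27, and CCAAT at 37 bases past the start. Of the 10 genes, 7 had an entry in the set of RefSeq promoters used here (8 entries, since Elovl1 had a pair). That set held no entry for Scd1, Scd2 and Fads1. CCAAT was found in 4 of the 8 entries and in 37.4% of 32851 mouse promoters of the same length, and GGGCGG in 4 entries and 35.7% of promoters, the Elovl1 match at -39 overlapping its CCAAT. The E-box letters were found in 1 entry, that of Elovl5, and in 7.15% of promoters. The SREBP motif searched, TCACNCCAC, was found in 0 entries and in 1.24% of promoters. The Acaca entry lies 65803 bases inside the gene and is not shown.

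The libraries held between 16899628 and 31290817 reads, recovered from the steps of the TPM values. The T cell genes fixed as markers had a mean TPM of at least 1 for 10 of 11, with a summed TPM of 3528 to 4761 in non-acclimated and 4396 to 5002 in cold-acclimated cells, and Thy1 was listed at 0 in every library. Cd4 was at 1.09, 0.0351 and 309.7 TPM in non-acclimated and 1.30, 0.352 and 328 TPM in cold-acclimated replicates 1, 2 and 3, so in replicates 1 and 2 the label CD4+ went against its own marker. The 7 adipocyte and hepatocyte markers summed to at most 0.141 TPM, the 7 B cell markers to at most 3.62 TPM and the 6 fibroblast markers to at most 4.54 TPM, while the 7 macrophage markers ranged from 2.87 to 21.5 TPM. By Cd4, replicate 3 thus stood apart in both groups, whereas Cd3d and Cd28 set replicate 2 apart. Cd3d was at 332.4, 64.3 and 240.1 TPM in non-acclimated and 304.5, 78.62 and 243.2 TPM in cold-acclimated replicates 1, 2 and 3. Cd28 was lowest in replicate 2 of both groups, at 7.35 and 5.61 TPM. Libraries with the same replicate number shared deviations from their group means across all genes. For Fads1, Scd2, Elovl5, Fasn and Elovl1, values are also given without replicate 3 of 1 or both groups.

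A call of upregulated or downregulated at 26°C needed, in limma on log2(TPM + 1), a p under 0.05 after Benjamini-Hochberg adjustment over all 12227 genes, and at least 1 log2 unit of change. By this rule, 16.0% of all tested genes were downregulated and 2.63% upregulated. Of the 9 fatty acid genes, 2 were downregulated, Fads1 and Elovl5, and 0 upregulated, and none was higher at an unadjusted p under 0.05. Acaca also had an adjusted p under 0.05 but a smaller fold change, which made 3 of 9 genes lower at this level, against 17.4% of all genes. The shares of 22.2% and 33.3% rest on 9 genes, and 1 gene more or fewer would move each by 11.1 percentage points. The median log2 fold change was -0.22 over the 9 genes and -0.34 over all tested genes, and 0.18 and 0.03 with median of ratios scaling.

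**Figure D1:**
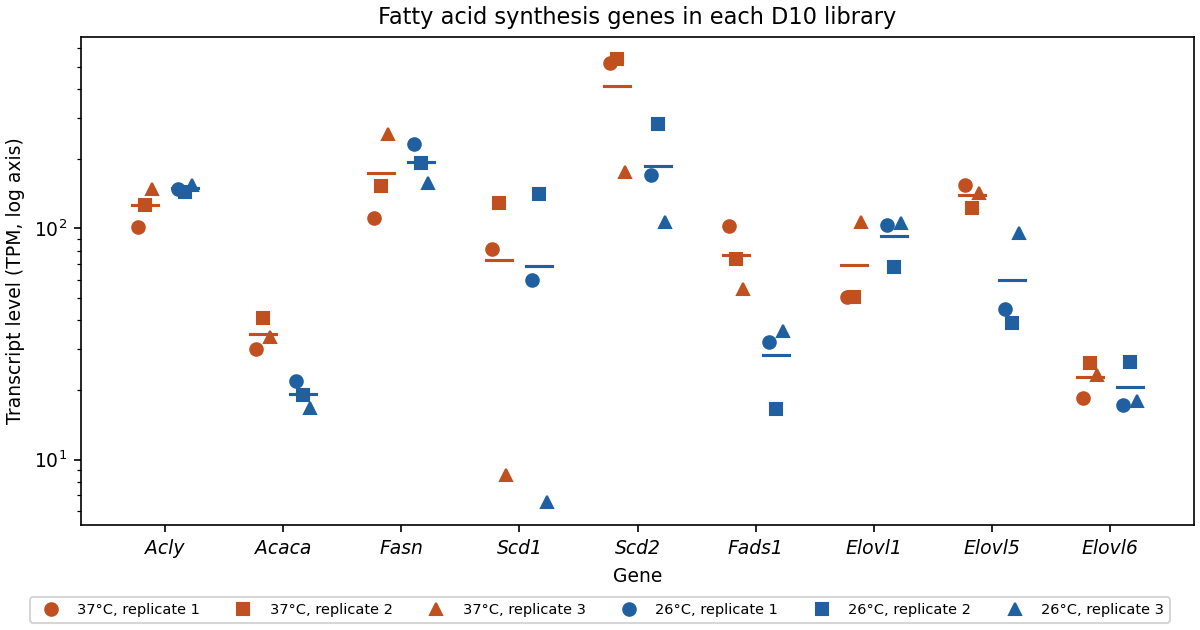
Transcript level (TPM, log axis) of the 9 tested genes in each library, with 37°C in orange and 26°C in blue, symbols for replicates 1 to 3 and short lines for the group means. The groups do not overlap for Acaca, Fads1 and Elovl5, and the replicate 3 triangles of Scd1 lie at 8.54 and 6.52 TPM, far below the other replicates of both groups.

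Acly, which supplies the acetyl-CoA for synthesis, was at 101.7, 126.6 and 148.4 TPM in non-acclimated and at 148.7, 144.1 and 153.8 TPM in cold-acclimated replicates 1, 2 and 3. The groups overlapped, with the cold-acclimated libraries close together and non-acclimated replicate 3 among them. The means were 125.6 ± 23.4 and 148.9 ± 4.85 TPM (SD, n = 3), and the log2 fold change of 0.26 (SE 0.22) had a limma adjusted p of 0.438. It was the only one of the 9 genes that was higher at 26°C in all 3 same-numbered pairs, which 18.2% of all genes were. With median of ratios scaling the log2 fold change was 0.67, with a limma adjusted p of 0.0639, and of 0.043 with the replicate block added.

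Acaca, whose product catalyses the committed step, was at 29.98, 40.96 and 34.06 TPM in non-acclimated and at 21.76, 18.95 and 16.68 TPM in cold-acclimated cells. Every cold-acclimated library was below every non-acclimated one. The log2 fold change was -0.84 (SE 0.24), from 35 ± 5.55 to 19.1 ± 2.55 TPM (SD, n = 3), with a limma adjusted p of 0.0446, which became 0.061 to 0.167 when any single library was left out. With median of ratios scaling it was -0.44 with an adjusted p of 0.23, and with limma-voom -0.46 with 0.204. With the replicate block the limma adjusted p was 0.0313, and 0.162 with median of ratios scaling added. Within pairs, the cold-acclimated level was 0.726, 0.463 and 0.49 times the non-acclimated one. Annotated genes on the opposite strand share 19138, 9312 and 16 bases with the Acaca gene.

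Fasn, the synthase, was at 111.2, 152.8 and 255.6 TPM at 37°C and at 231.6, 191.7 and 157.3 TPM at 26°C. The groups overlapped and the pairs differed in direction: the cold-acclimated level was 2.08 and 1.25 times the non-acclimated one in replicates 1 and 2, and 0.615 times in replicate 3. With means of 173 ± 74.3 and 194 ± 37.2 TPM (SD, n = 3), the log2 fold change of 0.23 (SE 0.34) was smaller than its error (limma adjusted p = 0.667). It was 0.55 without non-acclimated replicate 3 (limma adjusted p = 0.208) and 0.37 without cold-acclimated replicate 3 (0.492). In replicates 1 and 2 only it was 0.69 (0.0872). Whether the changes of Acly, Acaca and Fasn differed from each other was not tested.

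Among the desaturases, Scd2 and Scd1 encode stearoyl-CoA desaturases, which make monounsaturated from saturated acyl chains, and Fads1 and Fads2 encode the desaturases of polyunsaturated chains. Scd2 had the highest mean of the 10 genes in non-acclimated cells. Scd1 and Scd2 lie 87585 bases apart on chromosome 19, and Fads1 and Fads2 lie 81377 bases apart on the same chromosome.

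Fads1 (chr19:10160245-10174238 of GRCm39, plus strand), the delta-5 desaturase, was at 102, 74.02 and 54.46 TPM in non-acclimated cells. In cold-acclimated cells it was at 32.38, 16.54 and 36.02 TPM. Every cold-acclimated library was below every non-acclimated one. The mean fell from 76.8 ± 23.9 to 28.3 ± 10.4 TPM (SD, n = 3), a log2 fold change of -1.43 (SE 0.37) with a limma adjusted p of 0.033. With the replicate block the limma adjusted p was 0.0159, and 0.0364 with median of ratios scaling added. Median of ratios scaling without the block gave -1.03 with a limma adjusted p of 0.0813, and limma-voom gave -1.04 with 0.0815. Neither fit called Fads1. Cold-acclimated levels were 0.318, 0.223 and 0.661 times those at 37°C in replicates 1, 2 and 3. The limma adjusted p was 0.105 and 0.102 without non-acclimated replicates 1 and 2, 0.081 and 0.0938 without cold-acclimated replicates 1 and 2, and at most 0.0344 without replicate 3 of either group. Without replicate 1 or 2 of either group, downregulated calls over all genes also fell, from 1954 to between 332 and 599. Annotated antisense transcripts share 6337 and 1774 bases with the Fads1 gene, and the strand setting of the counting is not given in the sources used here.

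Fads2, the delta-6 desaturase that acts before Fads1 in the same pathway, was near the limit of detection. Its TPM was 0.0502, 0.0837 and 0.0858 in non-acclimated and 0.0795, 0 and 0 in cold-acclimated replicates 1, 2 and 3, which correspond to 1, 2, 3, 2, 0 and 0 recovered reads. A count of 0 allows up to 3 reads, so no difference between the groups was detectable at this depth, and a ratio of Fads1 to Fads2 was not formed.

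Scd2 was at 521, 540.5 and 176.1 TPM at 37°C and at 170, 283.6 and 106.6 TPM at 26°C. It was lower at 26°C in each pair, at 0.326, 0.525 and 0.605 times the non-acclimated level, but non-acclimated replicate 3 lay among the cold-acclimated libraries. Scd2 averaged 412.5 ± 205 TPM at 37°C and 187 ± 89.7 TPM at 26°C (SD, n = 3). The log2 fold change was -1.09 with an SE of 0.52 and a limma adjusted p of 0.171. With the replicate number as a block in the limma fit the SE was 0.23, the adjusted p 0.0146, and Scd2 was called downregulated with Fads1 and Elovl5. In that paired fit 21.9% of all genes were downregulated and 3.75% upregulated, and 3 and 0 of the 9 genes. Without replicate 3, the log2 fold change of Scd2 was -1.27 and its limma adjusted p 0.0237, and without non-acclimated replicate 3 alone they were -1.61 and 0.0432. Leaving out any other single library gave -1.44 to -0.74 with adjusted p of 0.146 to 0.402. With median of ratios scaling the log2 fold change was -0.67, with a limma adjusted p of 0.402, and of 0.0575 with the replicate block added, so Scd2 was not called in either of those fits.

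Scd1 was at 81.09, 129.3 and 8.54 TPM in non-acclimated and at 60.03, 140.5 and 6.52 TPM in cold-acclimated replicates 1, 2 and 3. Each cold-acclimated library lay close to the non-acclimated one of the same number, at 0.74, 1.09 and 0.764 times its level. Replicate 3 was 12.3-fold lower than the mean of the other replicates at 37°C and 15.4-fold lower at 26°C. Between means of 72.98 ± 60.8 and 69.01 ± 67.4 TPM (SD, n = 3), the log2 fold change of -0.22 had an SE of 1.26 and a limma adjusted p of 0.922, and an SE of 0.22 and adjusted p of 0.454 with the replicate number as a block. Its direction turned to 0.18 with median of ratios scaling. Scd2 was also lower in replicate 3, 3.01-fold at 37°C and 2.13-fold at 26°C, whereas Elovl1 was 2.13-fold higher there at 37°C and 1.23-fold higher at 26°C. The spread of Scd1 between replicates was thus far wider than its spread between temperatures, and Cd4 and Lyz2 ran the opposite way to it, Lyz2 reaching 11.6 and 14.8 TPM in the replicate 3 libraries, where Scd1 was lowest. Their part in the result was not tested. An antisense transcript shares 385 bases with the Scd1 gene.

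**Figure D2:**
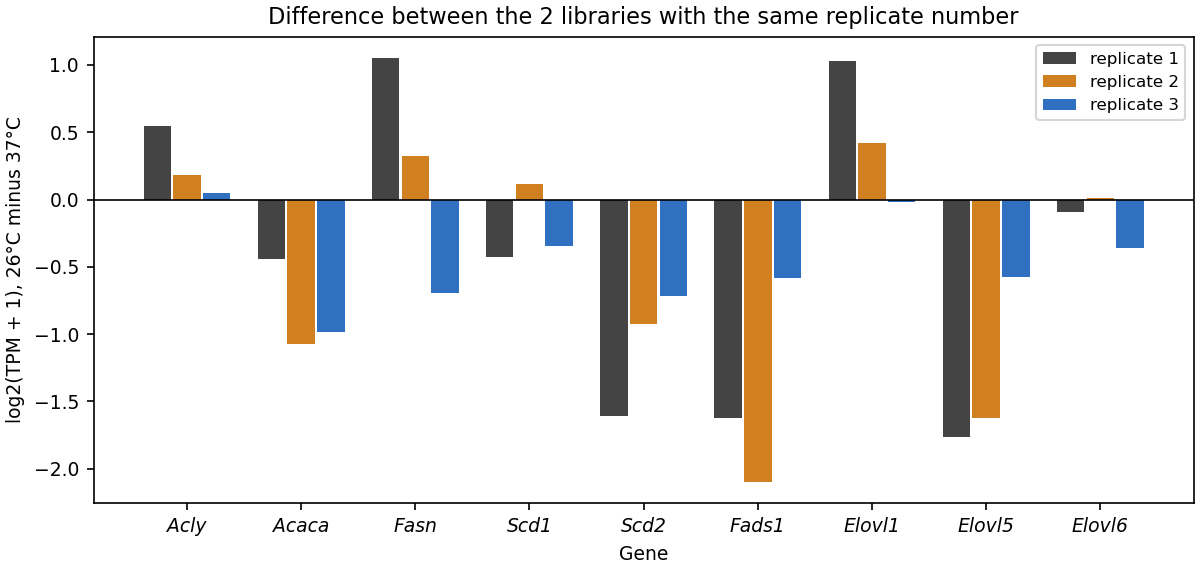
Difference in log2(TPM + 1) between the cold-acclimated and the non-acclimated library of the same replicate number, with 1 bar for each replicate and gene. Acaca, Scd2, Fads1 and Elovl5 are below 0 in all 3 pairs and Acly is above 0 in all 3, while Fasn runs from 1.05 in replicate 1 to -0.70 in replicate 3.

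Lower levels at 26°C in all 3 pairs were found for 4 of the 9 genes (Acaca, Scd2, Fads1 and Elovl5), and for 47.9% of all genes. Groups that did not overlap were found for 3 of 9 genes in the lower direction (Acaca, Fads1 and Elovl5) and 0 in the higher direction, against 31.4% and 9.69% of all genes. The shares of lower genes, 44.4% and 33.3%, lay near those of all genes.

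Of the elongases, Elovl5 (chr9:77824647-77891801 of GRCm39, plus strand) extends polyunsaturated chains, Elovl6 extends palmitate, and Elovl1 extends saturated and monounsaturated very long chains. Elovl5 was at 153.8, 122 and 142.4 TPM in non-acclimated cells. In cold-acclimated cells it was at 44.65, 38.85 and 95.19 TPM. The groups did not overlap, and cold-acclimated replicate 3 was the closest to the 37°C levels. The mean fell from 139 ± 16.1 to 59.6 ± 30.99 TPM (SD, n = 3), a log2 fold change of -1.32 (SE 0.35, limma adjusted p = 0.0375). With the replicate block the limma adjusted p was 0.0143. With median of ratios scaling added it was 0.0363, but the log2 fold change of -0.91 was too small for a call. Median of ratios scaling without the block gave a limma adjusted p of 0.0835, and limma-voom gave 0.0834. Neither fit called Elovl5. The level at 26°C was 0.29, 0.318 and 0.668 times that at 37°C. Without cold-acclimated replicate 3 the limma adjusted p was 0.00366, and leaving out any other single library gave 0.0732 to 0.13, so the call was lost in 5 of 6 cases. Downregulated calls over all genes also fell without replicate 1 or 2 of either group, from 1954 to between 332 and 599. Without non-acclimated replicate 3 they numbered 1821. An antisense transcript shares 1049 bases with the annotated gene.

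Elovl1 was at 50.34, 50.33 and 107 TPM at 37°C and at 103.8, 67.81 and 105.6 TPM at 26°C. Non-acclimated replicate 3 lay above every cold-acclimated library, and the other non-acclimated libraries lay below all of them. From means of 69.2 ± 32.7 and 92.4 ± 21.3 TPM (SD, n = 3), the log2 fold change was 0.48 (SE 0.36) with a limma adjusted p of 0.37. It was 0.84 without non-acclimated replicate 3 (limma adjusted p = 0.0839) and 0.37 without cold-acclimated replicate 3 (0.523). In replicates 1 and 2 only it was 0.73 (0.0857). With the replicate block and median of ratios scaling together it was 0.89 with a limma adjusted p of 0.0433, too small a change for a call. Median of ratios scaling without the block gave a limma adjusted p of 0.108. The Elovl1 gene shares 53 bases with Cdc20 on the opposite strand.

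Elovl6 was at 18.48, 26.19 and 23.33 TPM in non-acclimated and at 17.29, 26.44 and 17.91 TPM in cold-acclimated cells. The groups overlapped throughout. With means of 22.7 ± 3.90 and 20.5 ± 5.11 TPM (SD, n = 3), the log2 fold change of -0.15 (SE 0.27, limma adjusted p = 0.734) turned to 0.25 with median of ratios scaling. Annotated antisense transcripts share 12749, 1419 and 3 bases with the Elovl6 gene.

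The make-up of the elongase transcripts was compared because TPM is per length and can be summed. Of the summed TPM of Elovl1, Elovl5 and Elovl6, the Elovl5 share was 69.1%, 61.5% and 52.2% in non-acclimated and 26.9%, 29.2% and 43.5% in cold-acclimated cells. The Elovl1 share was 22.6%, 25.4% and 39.2% in non-acclimated and 62.6%, 51.0% and 48.3% in cold-acclimated cells. Elovl5 thus gave most of these transcripts in every non-acclimated library, and Elovl1 was the most abundant elongase of the 3 in every cold-acclimated one. The mean Elovl5 share was 60.9 ± 8.45% and 33.2 ± 8.996%, and the mean Elovl1 share 29.1 ± 8.91% and 54.0 ± 7.63% (SD, n = 3). Each difference had a two-sided exact permutation p of 0.1, the smallest that 3 against 3 libraries can give, and these shares were chosen after the values were seen. Elovl6 made up 10.02 ± 2.76% and 12.8 ± 6.20% (SD, n = 3; exact permutation p = 0.7). These shares do not depend on how libraries are scaled.

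**Figure D3:**
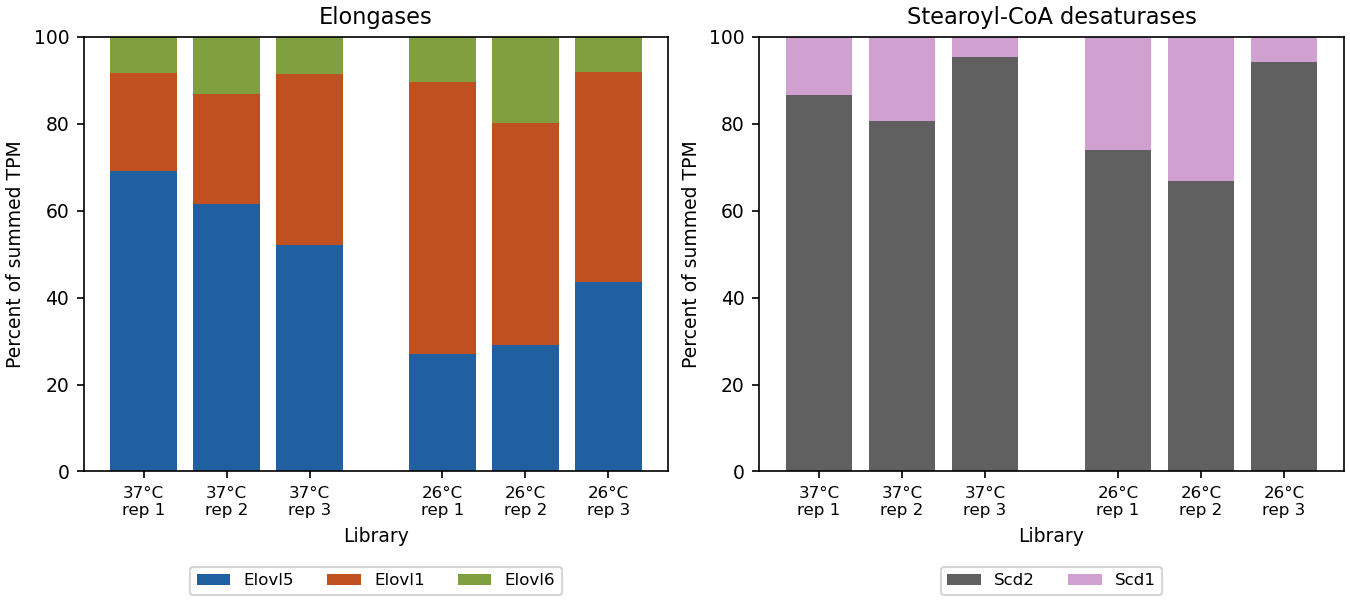
Share of each library's summed TPM held by Elovl5, Elovl1 and Elovl6 (left) and by Scd2 and Scd1 (right), in percent, for the 3 libraries at each temperature. The Elovl5 share lies between 52.2% and 69.1% at 37°C and between 26.9% and 43.5% at 26°C, and the Scd2 share is highest in replicate 3 of both groups.

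Scd2 held 86.5%, 80.7% and 95.4% of the summed TPM of Scd1 and Scd2 in non-acclimated and 73.9%, 66.9% and 94.2% in cold-acclimated replicates 1, 2 and 3. It was lower at 26°C in each pair, but the groups overlapped. The means of 87.5 ± 7.39% and 78.3 ± 14.2% (SD, n = 3) had a two-sided exact permutation p of 0.4. The difference of -9.20 percentage points ranged from -3.46 to -17.1 when single libraries were left out, the ends being reached without replicates 2 and 3 at 26°C.

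In non-acclimated cells, the order of mean TPM was Scd2, Fasn, Elovl5, Acly, Fads1, Scd1, Elovl1, Acaca, Elovl6 and Fads2. Neighbours from Scd2 down to Elovl1 overlapped between libraries, whereas Acaca, Elovl6 and Fads2 each lay below every library of the gene before it. In cold-acclimated cells the order was Fasn, Scd2, Acly, Elovl1, Scd1, Elovl5, Fads1, Elovl6, Acaca and Fads2, and the neighbours without overlap were Acly and Elovl1, Elovl5 and Fads1, and Acaca and Fads2. The summed TPM of the 10 genes was 1169, 1263 and 950.1 at 37°C and 830.4, 928.4 and 695.6 at 26°C. Scd2 made up 44.6%, 42.8% and 18.5% of that sum in non-acclimated and 20.5%, 30.5% and 15.3% in cold-acclimated replicates 1, 2 and 3.

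TPM fixes each library's total, and over all genes the median log2 fold change was -0.34. Median of ratios scaling, the normalization in the study's own test, put this median at 0.03. Measured from the median of all genes, the changes of TPM as deposited were -1.10 for Fads1, -0.98 for Elovl5, -0.75 for Scd2, -0.50 for Acaca, 0.12 for Scd1, 0.19 for Elovl6, 0.56 for Fasn, 0.60 for Acly and 0.81 for Elovl1. With median of ratios scaling, 8.6% of all genes were downregulated and 6.87% upregulated, and 0 of the 9 fatty acid genes in either direction, with Fads1 and Elovl5 lower and Acly and Elovl1 higher at an unadjusted p under 0.05. Fads1 then had a log2 fold change of -1.03 (limma adjusted p = 0.0813) and Elovl5 of -0.91 (0.0835). Acly reached 0.67 (0.0639) and Elovl1 0.89 (0.108). Under this scaling, 5 of the 9 genes had a log2 fold change above 0, against 3 for TPM as deposited, the added ones being Scd1 and Elovl6. limma-voom on the recovered reads also called 0 of the 9, with the same 4 genes at an unadjusted p under 0.05. The share of all genes at this unadjusted level was not counted, so the 4 genes have no background to be read against.

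**Figure D4:**
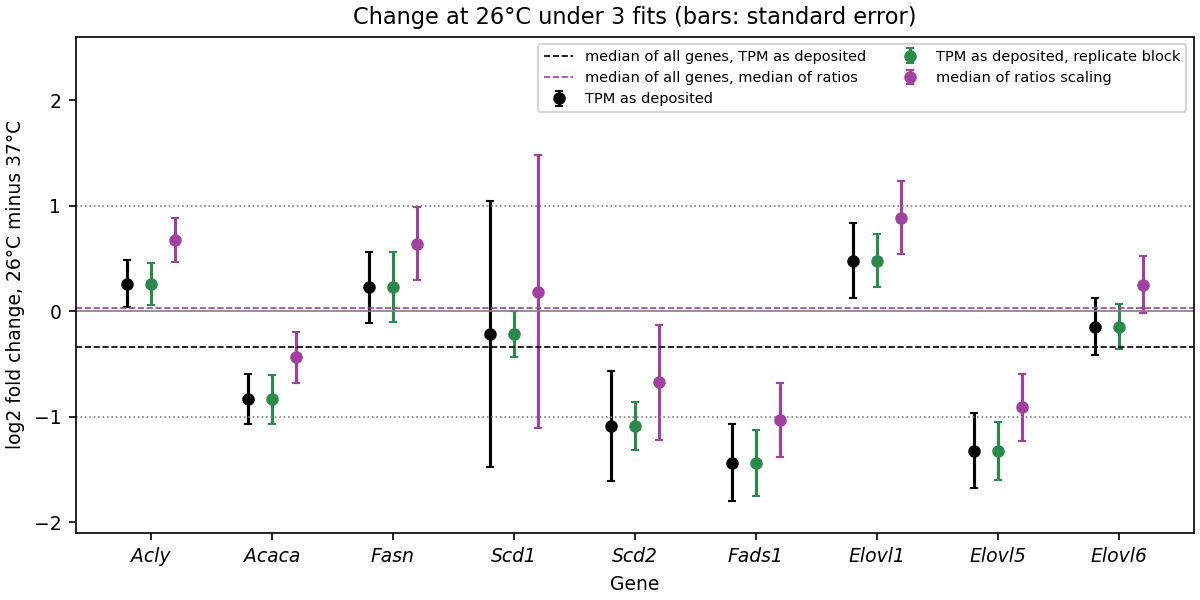
log2 fold change (26°C minus 37°C) with its standard error for TPM as deposited, the same with the replicate block, and median of ratios scaling. Dashed lines are the medians of all tested genes (-0.34 as deposited and 0.03 after scaling) and dotted lines the size needed for a call, and Scd1 and Elovl6 change sign between the scalings.

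The genes around the pathway were taken from 12 lists with 145 genes, of which 115 were tested. Of these, 31 (27.0%) were downregulated and 1 (0.87%) upregulated as deposited, against 16.0% and 2.63% of all genes. With median of ratios scaling the numbers were 14 (12.2%) and 5 (4.35%), against 8.6% and 6.87% of all genes. Leaving out non-acclimated replicate 2 left 5 downregulated list genes, the fewest of the 6 libraries, and leaving out cold-acclimated replicate 3 gave 42, the most. Calls over all genes moved the same way. They numbered 332 of 12145 and 2734 of 12255 genes in these fits, against 1954 of 12227 with every library. The lists cover what supplies the pathway, uses its products or controls it. Medians below are log2 fold changes of TPM as deposited and stand beside -0.34 for all genes.

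In the supply of acetyl-CoA and NADPH, 2 of 9 tested genes (22.2%) were downregulated and 0 upregulated, with a median of -0.67. Idh1 alone was called with median of ratios scaling, where the median was -0.25. Idh1, the cytosolic NADP-dependent isocitrate dehydrogenase, fell from 38.1 ± 29.3 to 4.70 ± 0.957 TPM (SD, n = 3; log2 fold change -2.45, limma adjusted p = 0.0293). Acss2, which makes acetyl-CoA from acetate and so serves beside Acly, changed by -1.38 (limma adjusted p = 0.042). In the mitochondrial synthesis list, 3 of 8 tested genes (37.5%) were downregulated: Oxsm, the condensing enzyme of mitochondrial fatty acid synthesis (-1.52), Cbr4, a subunit of its reductase (-1.69), and Mlycd, which breaks down malonyl-CoA (-1.84), and the same 3 were called with median of ratios scaling.

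Of the 5 tested genes that complete the elongation cycle or encode other elongases, 0 passed both thresholds, and 1 did with the replicate block, Hacd4 (-1.69, limma adjusted p = 0.0214). The block fit called 21.9% of all genes downregulated. Hacd3, a dehydratase of the cycle, had a log2 fold change of -0.82 (limma adjusted p = 0.0444), and Hsd17b12, its ketoacyl reductase, one of 0.88 (0.0571), which was 1.29 and called upregulated with median of ratios scaling (0.0272). Of 5 other desaturase and electron supply genes, 1 was downregulated, Cyb5b, an outer mitochondrial membrane cytochrome b5 (-1.23, limma adjusted p = 0.0164), which was at -0.82 and not called with median of ratios scaling. Degs1, a sphingolipid desaturase, was at 137 ± 17.98 and 223 ± 67.6 TPM (SD, n = 3; limma adjusted p = 0.134).

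Among the 10 SREBP control genes, 3 (30.0%) were downregulated and 0 upregulated. Median of ratios scaling gave 1 downregulated gene, Insig2, and 1 upregulated, Rnf139 (1.00, limma adjusted p = 0.0298). Insig2, which holds SREBPs in the endoplasmic reticulum, fell from 11.1 ± 1.64 to 0.711 ± 0.546 TPM (SD, n = 3; log2 fold change -2.86, limma adjusted p = 0.00673). Mbtps1 and Mbtps2, the proteases that release SREBPs, changed by -1.29 and -1.21, and by -0.89 and -0.80 with median of ratios scaling, where neither was called. Srebf1, the SREBP that mainly drives fatty acid genes, was at 102 ± 26.7 and 57.1 ± 5.24 TPM (SD, n = 3; log2 fold change -0.79, limma adjusted p = 0.0602). Log2 fold changes were -0.18 for Srebf2, the SREBP of sterol genes, -0.05 for its escort Scap and 0.42 for Insig1 (limma adjusted p of 0.602, 0.92 and 0.418), and with median of ratios scaling Srebf2 and Scap turned to 0.24 and 0.36. In the list of LXR, ChREBP and other regulators, Rxrb, a partner of LXR, was the 1 downregulated gene of 8 (12.5%), at -1.16, and 0 were called with median of ratios scaling. Nfya, a subunit of NF-Y, was at -1.57 with a limma adjusted p of 0.0574. With the replicate block 3 of the 8 were downregulated: Rxrb, Nfya (adjusted p = 0.00749) and Mlx (-1.01, adjusted p = 0.0297). In that fit 21.9% of all genes were downregulated, against 16.0% without the block.

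Of 8 tested genes that activate fatty acids, 1 (12.5%) was upregulated and 2 (25%) were downregulated. Acsl1, a long-chain acyl-CoA synthetase, rose from 9.004 ± 2.70 to 34.1 ± 1.10 TPM (SD, n = 3; log2 fold change 1.84, limma adjusted p = 0.00778), while its relative Acsl3 (-1.58) and the transporter and synthetase Slc27a4 (-2.16) fell. Acsl1 and Slc27a4 were also called with median of ratios scaling, at 2.23 and -1.83, and Acsl3 was not. The phospholipid acyltransferases Lclat1 (-1.92) and Mboat1 (-1.31) were the 2 downregulated genes of 7 (28.6%), and Lclat1 alone was called with median of ratios scaling. In glycerolipid synthesis and lipid droplets, 4 of 13 (30.8%) were downregulated: Plin3, a lipid droplet coat protein, fell from 143 ± 68.3 to 17.9 ± 2.15 TPM (SD, n = 3; log2 fold change -2.79), and Agpat1 (-1.38), Agpat2 (-1.32) and Dgat1 (-1.24), enzymes of triacylglycerol synthesis, fell less. Plin3 was the 1 downregulated gene with median of ratios scaling, and 2 were then upregulated, Agpat5 (1.20) and Hilpda (1.21). In fatty acid uptake, 0 of 3 tested genes were called, with Lipa at -0.65 and Fabp5 at 0.61 (limma adjusted p of 0.174 and 0.278).

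In fatty acid oxidation, the reverse route, 4 of 21 tested genes (19%) were downregulated and 0 upregulated, with a median of -0.63. Cpt2 alone was called with median of ratios scaling, where the median was -0.24. Cpt2, which brings acyl chains into the mitochondrial matrix as acyl-CoA, fell from 47.7 ± 13.9 to 4.37 ± 2.23 TPM (SD, n = 3; log2 fold change -3.23, limma adjusted p = 0.00697). Etfdh (-2.03) and Decr1 (-1.25) were also among them. In sterol synthesis, which shares acetyl-CoA and SREBP control with the pathway, 9 of 18 tested genes (50%) were downregulated, with a median of -1.18. Median of ratios scaling left 5 called and a median of -0.78. These were Mvd (-2.21), Mvk (-1.83), Idi1 (-1.68), Dhcr7 (-1.63), Hmgcs1 (-1.57), Pmvk (-1.49), Fdft1 (-1.37), Fdps (-1.31) and Msmo1 (-1.09), of which Dhcr7, Fdft1, Fdps and Msmo1 were not called under that scaling.

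**Figure D5:**
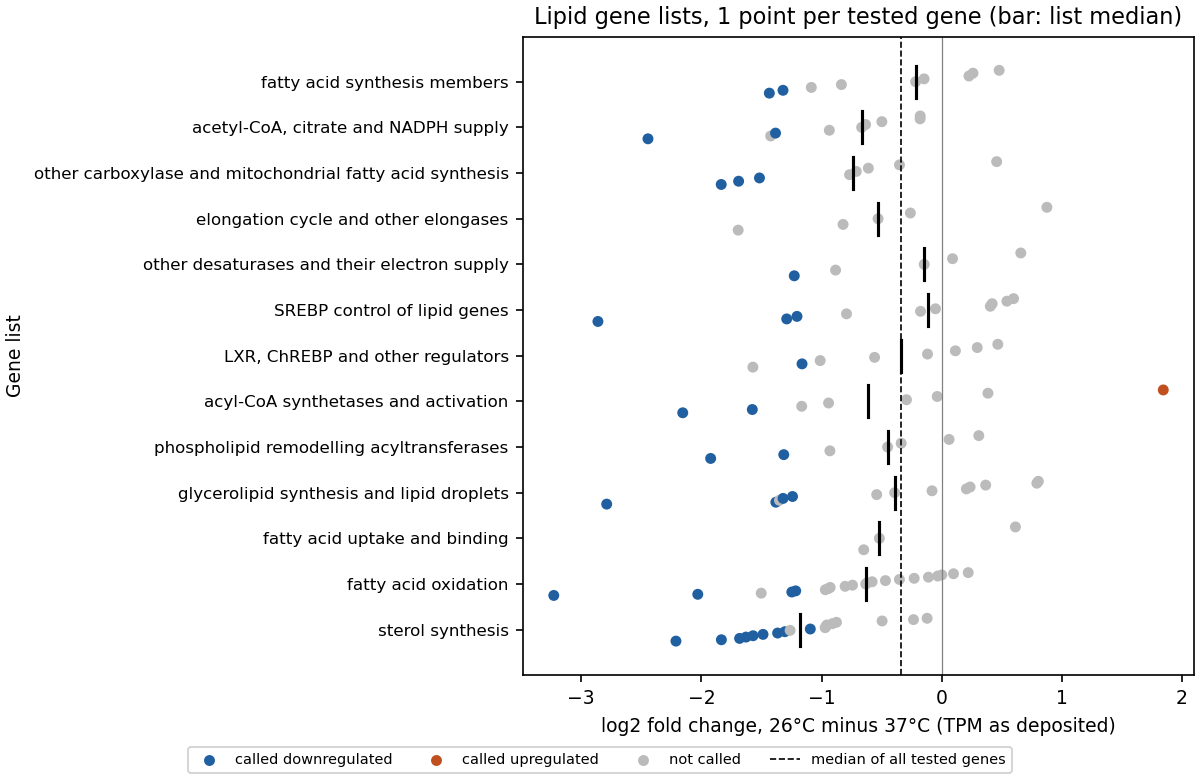
log2 fold change (26°C minus 37°C, TPM as deposited) of each tested gene in the fatty acid genes and the 12 surrounding lists, blue where called downregulated, orange where called upregulated and grey otherwise. Black bars are list medians, from -1.18 for sterol synthesis to -0.11 for SREBP control (0.30 with median of ratios scaling), and the dashed line is the median of all tested genes at -0.34.

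Fads1 and Elovl5, with the largest changes of the 9 genes, followed a similar course over the 6 libraries (Pearson r = 0.893 of log2(TPM + 1)). The tested genes most like Fads1 were Chmp5 (r = 0.998), Mospd2 (0.997) and Golga2 (0.996). Those most like Elovl5 were Zfp143 (0.999), Galns (0.998) and Fkbp5 (0.998). Scd1 and Scd2 had an r of 0.786, and Scd2 and Elovl1 one of -0.96. The points of these correlations share the temperature split and the replicate pairs, so they describe 6 libraries and no more.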

How the data were processed

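D10 cells were sequenced as 3 cold-acclimated and 3 non-acclimated poly(A)+ libraries, strand-specific and paired-end. Per the submitters' processing notes, the authors used FastQC 0.11.7, Trimmomatic 0.38, HISAT2 2.1.0, featureCounts 1.6.3 and GRCm39. The values are TPM as deposited by the authors, in 1 table of the whole series. The sources used here do not give the annotation release or the strand setting. RNA was extracted in old and new batches, per the labels, which assign no library to either, so the batches were not tested.

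Genes whose mean TPM reached 1 (12227) were fitted as log2(TPM + 1) by limma 3.58.1 in R 4.3.3, with trended variance. Fold changes on this scale understate those of low genes. Calls required 1 log2 unit of change and a p under 0.05 after Benjamini-Hochberg adjustment. Whole reads were recovered from the TPM steps for 100% of 21195 genes, within 1e-06 reads, for limma-voom. Shares were compared by an exact permutation test (Python 3.11.15, scipy 1.17.1). Read recovery and the limma fits as deposited, with median of ratios scaling, with the replicate block and with voom were tested on simulated data. The simulated libraries had no replicate effect and as many raised as lowered genes, so they did not test the pairing. Deviations from the group mean correlated at 0.48, 0.503 and 0.512 between same-numbered libraries and at -0.408 to 0.019 otherwise, so the numbers pair the libraries. The main fit, the fits with single libraries left out and the permutation tests used temperature alone, without this pairing.

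The genes, lists and tests were chosen with earlier results of these data known. All 10 genes were named, with the called genes and the 2 smallest p of each list, Srebf1, Srebf2, Scap, Insig1, and the 3 genes most like each of the 2 most changed members. A few genes that this rule takes are not reported here. Cd4, Cd3d, Cd28, Lyz2, Thy1, Cdc20, Rnf139, Hacd4, Mlx, Agpat5 and Hilpda were named after their values were seen. The alternatives were a pseudocount of 0.1, no filter, median of ratios scaling, limma-voom, the replicate block, each library left out, and replicates 1 and 2 only. The ratio of Fads1 to Fads2 was planned but not formed, since Fads2 was at 0 in 2 libraries.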

Additional observations from a re-analysis of the deposited data

How the results depend on the processing

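Fads1, Elovl5, Scd2 and Acaca were lower, and Acly and Elovl1 higher, at 26°C under every alternative run. Leaving out single libraries gave log2 fold changes of -1.66 to -1.10 for Fads1 (limma adjusted p 0.0213 to 0.105) and -1.71 to -1.08 for Elovl5 (0.00366 to 0.13). Both lost their call without replicate 1 or 2 of either group, and Elovl5 also without non-acclimated replicate 3, where Scd2 was called. Leaving out replicate 1 or 2 of either group also lowered downregulated calls over all genes, from 1954 to between 332 and 599. Scd1 turned to 0.18 with median of ratios scaling, with or without the replicate block, and to 0.19 with limma-voom, and ran from -1.36 to 0.99 with single libraries left out. Elovl6 turned to 0.25 in those 3 fits. Fasn ran from -0.048 to 0.55 with single libraries left out, being below 0 without non-acclimated replicate 1. The Elovl6 share differed by -0.71 to 5.13 percentage points, being below 0 without cold-acclimated replicate 2.

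Of the 9 fatty acid genes, 0 were downregulated with no filter, median of ratios scaling or limma-voom, 1 (Fads1) with the replicate block and median of ratios scaling together, 3 with the replicate block alone, and 0 to 2 with single libraries left out. Of the list genes, 19 were downregulated with no filter, 14 with median of ratios scaling and 14 with limma-voom, and 5 to 42 with single libraries left out. List genes called upregulated numbered 5 with median of ratios scaling, 7 with the block added, 5 with limma-voom, 2 in replicates 1 and 2 only, and 1 to 3 with single libraries left out. Over all genes, downregulated calls numbered 1954 as deposited, 1121 with no filter, 1052 with median of ratios scaling, 1092 with limma-voom, 3107 in replicates 1 and 2 only, and 332 to 2734 with single libraries left out. Upregulated calls numbered 321, 184, 840, 792, 659 and 59 to 458 in the same order. The fit with no filter tested 21195 genes, and the other fits between 12144 and 12265. With the replicate block and median of ratios scaling together, 1519 of the 12227 tested genes were downregulated and 1130 upregulated. With the block alone these numbers were 2679 and 458. Of the calls of the 9 genes, the replicate block changed that of Scd2 with TPM as deposited and that of Fads1 with median of ratios scaling. For Fads2, depth was the limit.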
